A study of Mus musculus with 168 samples.

Results

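The 9 genes described here are B2m, Tap1, Tap2, Tapbp, Psmb8, Psmb9, Psmb10, Nlrc5 and H2-Q4. They make or load the peptides that MHC class I molecules show at the cell surface, form part of these molecules, or control their genes. They were taken by gene symbol from the array's probe annotation, 9 of 19752 genes with a probe set of a single symbol, and for each the probe set with the highest mean log2 intensity over all arrays was used. Nlrc5 had 19 probe sets and each of the others had 1. The rule uses gene names and mean levels, and no difference between groups.

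The series asked how blocking Janus kinases (JAK) in the living mouse alters transcripts of sorted immune cells. Male C57BL/6 mice, 6 weeks old, were gavaged with a JAK inhibitor or a vehicle, and RNA of each sorted population was measured on Affymetrix Mouse Gene 1.0 ST arrays. The 168 arrays came from 7 experiments, which the sample titles name J2, J3, J6, J8, J12, J23 and J25. The labels do not name animals, and the number within each experiment was taken as 1 animal, 80 in all. The inhibitors carried the codes SB00513404, SB00526221, SB00526222, SB00526226 and SB00526228, and the labels give neither a structure nor a dose.

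From the spleen, F4/80+ macrophages (MF) gave 33 arrays, FLT3+ dendritic cells (DC) 20, NK1.1+ natural killer cells (NK) 27, CD4+ T cells (T4) 39 and Ly6G+ granulocytes (GN) 16. From the peritoneum, F4/80+ macrophages gave 33 arrays, 24 of them sorted as F4/80+ ICAM2+. Prolonged inhibitor groups in the spleen were taken 14 to 18 h after the last of 14 to 28 treatments (18 arrays of MF, 12 of DC, 19 of NK, 19 of T4 and 6 of GN). The 4 h inhibitor groups were taken 4 h after the last of 3 treatments (4 arrays of MF, 2 of DC, 5 of NK, 5 of T4 and 4 of GN), all of them in J2. In T4, 3 further inhibitor arrays were taken 18 h and 1 was taken 3 h after a single treatment. Peritoneal inhibitor groups were early (12 arrays, 1.5 to 6 h after 1 treatment), late (8 arrays, 18 to 28 h after 1 treatment) and 14x (4 arrays, 18 h after 14 treatments). The plain vehicle gave 39 arrays: 8 of spleen MF, 6 of DC, 3 of NK, 8 of T4, 5 of GN and 9 of peritoneal MF. The NK vehicle arrays came from J2 (2) and J6 (1), with none from J3 or J8. A vehicle at pH 3 gave 7 arrays, 3 of MF, 3 of T4 and 1 of GN. No vehicle was taken on the 4 h schedule, and plain vehicle of the prolonged schedule served for the 4 h groups too, so schedule and treatment cannot be told apart there.

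Class I molecules present fragments of proteins that the proteasome has cut. Interferons, which signal through JAK kinases and STAT transcription factors, exchange the catalytic subunits of the proteasome for Psmb8 (LMP7), Psmb9 (LMP2) and Psmb10 (MECL-1), giving the immunoproteasome, which lymphoid cells and dendritic cells also carry at rest. The transporter made of Tap1 and Tap2 moves the peptides into the endoplasmic reticulum, where tapasin (Tapbp) holds empty class I molecules beside it. B2m is the light chain of every class I molecule, H2-Q4 is a heavy chain gene of the Qa region, and Nlrc5 is a transactivator of class I genes that is itself induced by interferon.

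Of the 9 genes, Tap1, Tap2, Tapbp, Psmb8, Psmb9 and H2-Q4 lie on chromosome 17 in the mouse MHC region. B2m lies on chromosome 2, and Psmb10 and Nlrc5 lie on chromosome 8. Promoter windows, from 250 bases before to 50 bases after the start, were found in RefSeq (GRCm38.p6) for 7 of the 9 genes. In the 4 windows printed below, capitals mark motif matches on either strand. The motifs are a core of the interferon-stimulated response element (ISRE core, GAAA, any 2 bases and GAAA again), the STAT motif GAS (TTCNNNGAA) and the inverted CCAAT box (ATTGG). The printed windows include the only ISRE core match (B2m) and the only GAS match (Psmb8) among the 7. Those of Tapbp, Psmb9 and Psmb10 are not printed. B2m is at chr2:122147437-122147736 (plus strand), Tap1 at chr17:34187306-34187605 (plus strand), Psmb8 at chr17:34197945-34198244 (plus strand) and H2-Q4 at chr17:35379367-35379666 (plus strand).
B2m: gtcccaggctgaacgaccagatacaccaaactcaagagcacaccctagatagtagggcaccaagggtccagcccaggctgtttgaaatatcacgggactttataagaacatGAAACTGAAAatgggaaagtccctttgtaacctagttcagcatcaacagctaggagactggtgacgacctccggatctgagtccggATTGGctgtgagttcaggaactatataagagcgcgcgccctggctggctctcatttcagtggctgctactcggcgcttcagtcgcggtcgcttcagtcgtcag
Tap1: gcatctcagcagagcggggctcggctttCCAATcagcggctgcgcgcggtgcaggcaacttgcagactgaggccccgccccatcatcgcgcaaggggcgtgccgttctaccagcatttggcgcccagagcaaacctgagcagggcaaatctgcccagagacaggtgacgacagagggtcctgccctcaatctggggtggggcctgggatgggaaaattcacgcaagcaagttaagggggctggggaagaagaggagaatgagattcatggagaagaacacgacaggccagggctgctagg
Psmb8: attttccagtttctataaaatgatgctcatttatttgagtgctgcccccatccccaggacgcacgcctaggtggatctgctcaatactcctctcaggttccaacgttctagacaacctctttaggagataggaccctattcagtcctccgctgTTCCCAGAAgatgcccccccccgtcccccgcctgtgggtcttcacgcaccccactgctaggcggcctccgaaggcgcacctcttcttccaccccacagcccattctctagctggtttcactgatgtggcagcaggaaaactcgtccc
H2-Q4: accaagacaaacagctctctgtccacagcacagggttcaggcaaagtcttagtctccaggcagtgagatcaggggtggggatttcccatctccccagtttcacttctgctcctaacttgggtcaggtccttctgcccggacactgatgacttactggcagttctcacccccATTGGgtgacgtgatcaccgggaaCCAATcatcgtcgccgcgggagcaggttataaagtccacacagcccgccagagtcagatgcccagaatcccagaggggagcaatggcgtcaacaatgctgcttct
The Tap1 window also serves its neighbour. Tap1 and Psmb9 start 226 bases apart on opposite strands, and their windows share 275 bases, so that the capitals in the Tap1 window are the same bases as the ATTGG found 8 bases before the Psmb9 start. The B2m window held the ISRE core 139 bases and an ATTGG 53 bases before the start. The Psmb8 window held a GAS match 97 bases before the start, and the H2-Q4 window held an ATTGG on each strand, 79 and 55 bases before it. Across the 7 windows the ISRE core matched in 1, GAS in 1 and ATTGG in 5, while 3.44%, 8.3% and 37.4% of all 32851 windows of the same length, on either strand, held them. No ISRE core or GAS match overlapped an ATTGG match.

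All values are deposited intensities on a log2 scale, so a difference of 1 is a doubling, and levels of different genes are not set against each other. All 9 genes were above the median of the array on all 168 arrays. Listed markers of NK cells, T cells, dendritic cells and neutrophils had their highest means in the population sorted for them. Ncr1 averaged 13.38 in NK and at most 6.08 elsewhere, Cd3e 12.56 in T4, Flt3 11.74 in DC and Ly6g 13.03 in GN. Some markers of other cells were not low. NK arrays had Lef1 at 10.07, Cd3g at 9.71 and Cd3e at 9.14, and DC arrays Cd79b at 9.79 and Ms4a1 at 9.08. GN arrays had Slc40a1 at 11.90, Itgax at 10.695 and Treml4 at 10.36. On the arrays labelled spleen MF, 4 of the 6 listed markers of red pulp macrophages, the resident macrophages of the spleen, were low (Spic averaged 5.15, Slc40a1 5.51, Vcam1 5.99 and Treml4 6.16). The other 2, Cd5l at 12.003 and Hmox1 at 10.39, were high, as they were in peritoneal MF (12.10 and 10.63). Markers of large peritoneal macrophages were high, with Gata6 at 11.14, Alox15 at 13.53 and Timd4 at 11.09, against 11.17, 13.56 and 10.59 in peritoneal MF. Between the vehicle arrays of these 2 populations, 66 of 13153 genes differed (0.502%), so spleen MF below is a label. Of the 168 arrays, 16 stood apart from the others of their population by their correlation with them. Leaving these out changed calls on inhibitor effects or schedules for H2-Q4 in NK and spleen MF. It changed the F test between cell types for Tapbp, and the number of pairs of populations called by 1 or 2 for 7 of the 9 genes.

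In vehicle-treated animals the class I genes followed cell type. By means over all experiments, CD4 T cells were highest for 7 of the 9 genes and one of the macrophage labels lowest for 6. Experiments entered the populations in unequal parts, and the baseline fit had no experiment term. For Psmb10, T4 were above NK by these means but below NK within J2 and J6, the experiments with vehicle arrays of both. A moderated F test over the 39 plain vehicle arrays called 8 of the 9 genes different between populations, where 93.9% of all 13153 genes were called. The exception was Tapbp, at an adjusted p of 0.0910, or 0.0232 without the arrays that stood apart. A share near that of all genes says nothing particular about these genes, so the sizes are given. In sorted populations, fewer cells of a subtype and less RNA per cell cannot be told apart. H2-Q4 spanned 5.13-fold between its highest and lowest population means, Tap1 4.49-fold and Psmb10 4.05-fold, while Tapbp spanned 1.55-fold and B2m 1.25-fold.

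**Figure D1:**
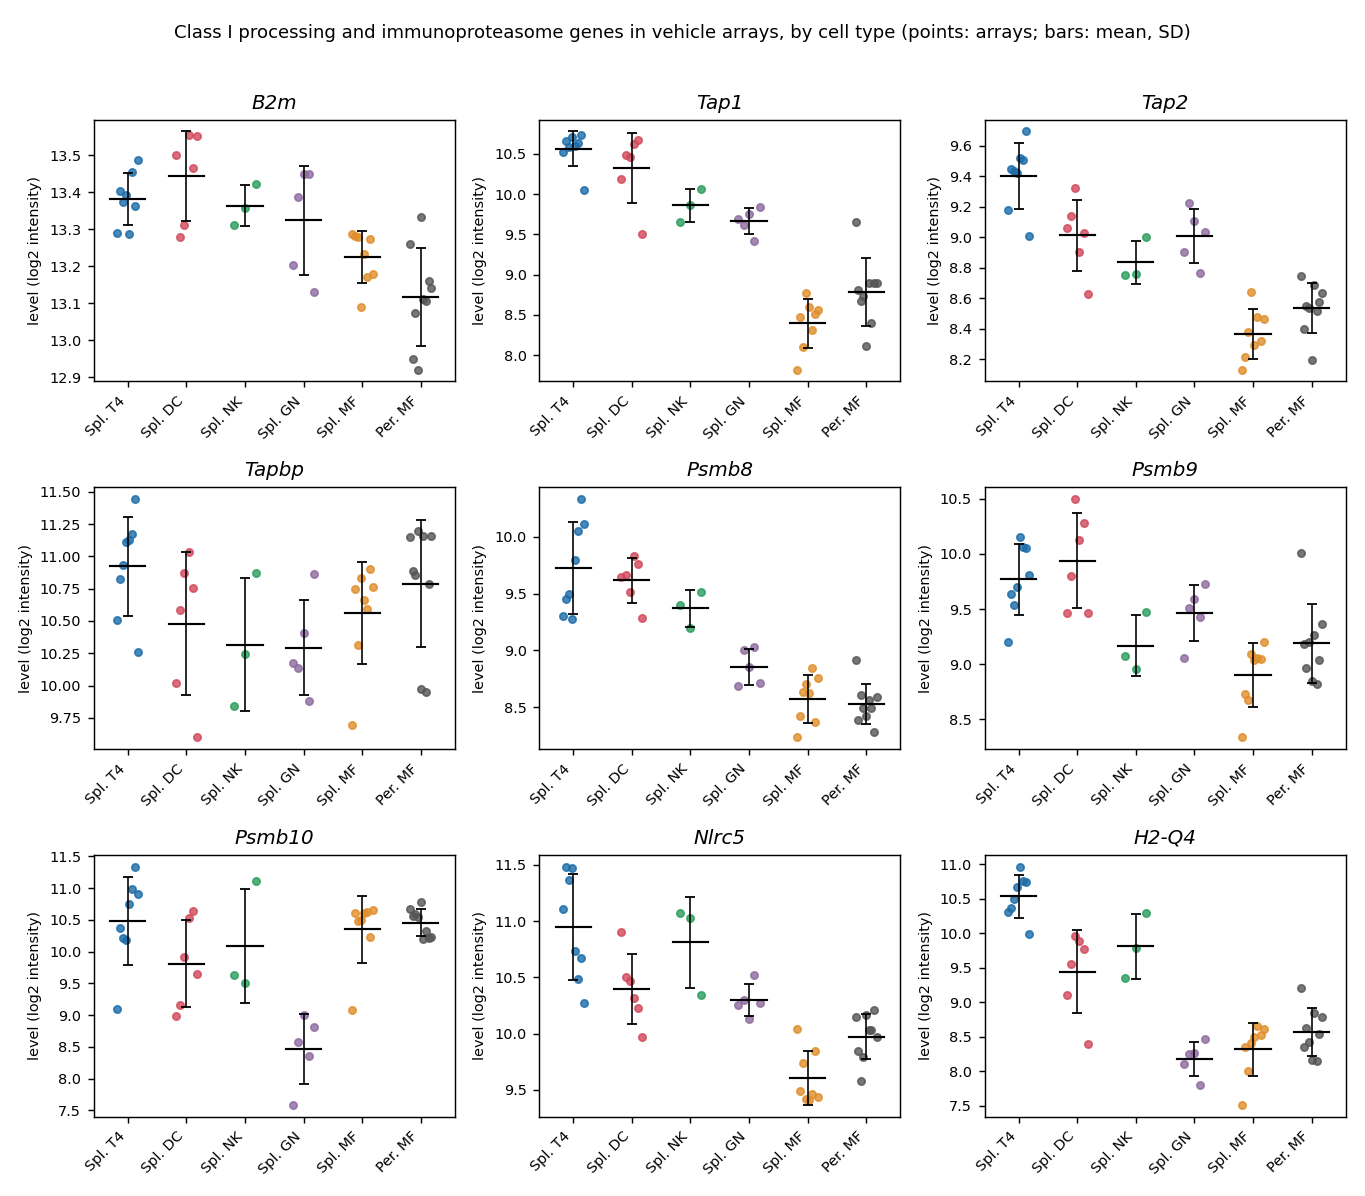
Log2 intensity (vertical axes) of the 9 genes on the plain vehicle arrays of each sorted population (horizontal axes), with 1 point per array and bars for the mean and SD. T4 has the highest mean for Tap1, H2-Q4 and Nlrc5, GN has the lowest for Psmb10, and B2m spans 13.12 to 13.44 between population means.

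Of the peptide transporter, Tap1 averaged 10.56 ± 0.22 in T4, 10.32 ± 0.44 in DC, 9.86 ± 0.21 in NK, 9.66 ± 0.16 in GN, 8.79 ± 0.42 in peritoneal MF and 8.39 ± 0.31 in spleen MF (SD, n = 8, 6, 3, 5, 9 and 8). The difference of spleen MF from T4 was −2.144 (SE 0.15) and that from DC −1.92 (SE 0.16). Neighbours in the order did not differ past the threshold between T4 and DC, DC and NK, NK and GN, or the 2 macrophage labels, whereas GN stood 0.87 above peritoneal MF (SE 0.18). Its partner Tap2 had a narrower range, from 9.40 ± 0.21 in T4 to 8.37 ± 0.16 in spleen MF. The gap between T4 and the next population, DC, was called for Tap2, with DC 0.38 lower (SE 0.10).

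H2-Q4 averaged 10.54 ± 0.31 in T4, 9.81 ± 0.47 in NK, 9.45 ± 0.60 in DC, 8.57 ± 0.34 in peritoneal MF, 8.32 ± 0.38 in spleen MF and 8.18 ± 0.25 in GN. T4 exceeded GN by 2.37 (SE 0.21), and NK, the next population, differed from T4 by −0.68 (SE 0.25, adjusted p 0.0454). NK and DC did not differ past the threshold, and neither did the 2 macrophage labels or spleen MF and GN. H2-Q4 belongs to a family of near-identical Qa genes, and its probes may also bind their transcripts, so its values may be those of several H2-Q genes. B2m, which pairs with every class I heavy chain, lay in a much narrower band, 13.44 ± 0.12 in DC and 13.12 ± 0.13 in peritoneal MF, with T4 at 13.38, NK at 13.36, GN at 13.32 and spleen MF at 13.22. B2m ranked a median of 65 from the top of each array and reached 13.59, which leaves little room above it on this platform. Tapbp was called in 2 of 15 pairs of populations, with T4 0.64 above GN (SE 0.23) and GN 0.52 below peritoneal MF (SE 0.23). Without GN vehicle replicate 4 it was called in 0 pairs, and in 1 pair with experiment as a fixed effect.

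The immunoproteasome subunits differed in their order. Psmb8 followed the lymphoid pattern, with 9.73 ± 0.40 in T4, 9.62 ± 0.20 in DC, 9.37 ± 0.16 in NK, 8.86 ± 0.16 in GN, 8.58 ± 0.21 in spleen MF and 8.53 ± 0.18 in peritoneal MF. Psmb9 was highest in DC, at 9.94 ± 0.43, followed by T4 at 9.77, GN at 9.46, peritoneal MF at 9.19, NK at 9.17 and spleen MF at 8.90. DC exceeded NK by 0.72 for Psmb9 (SE 0.21), the one gene of the 9 called between DC and NK. Psmb10 did not follow this order: T4 at 10.48, peritoneal MF at 10.46, spleen MF at 10.35, NK at 10.08 and DC at 9.81 lay above GN, which was at 8.47 ± 0.55. Among the first 5, DC were called below T4, by 0.66 (SE 0.26), and below peritoneal MF, by 0.63 (SE 0.26). The SD of Psmb10 in NK was 0.90 (n = 3), and 2 of these 3 vehicle arrays came from J2. Within experiments the vehicle mean of NK was above that of T4, at 9.57 against 9.10 in J2 and 11.12 against 10.98 in J6. Spleen MF exceeded GN by 1.88 for Psmb10 (SE 0.27), the one gene of the 9 on which spleen MF were called above another population. The transactivator Nlrc5 averaged 10.95 ± 0.47 in T4, 10.81 ± 0.41 in NK, 10.40 ± 0.31 in DC, 10.30 ± 0.14 in GN, 9.97 ± 0.20 in peritoneal MF and 9.61 ± 0.24 in spleen MF.

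Over all 15 pairs of populations, 76 of 135 tests on the 9 genes passed the threshold. Spleen MF were lower for 7 genes than DC (49.6% of all genes called in either direction), for 5 than NK (44% of all genes), for 7 than T4 (56.9%) and for 5 than GN, with 1 higher (78.5%). DC were higher for 1 gene than NK (35%), lower for 4 than T4 (47.5%), higher for 5 than GN (72.3%) and higher for 7 than peritoneal MF, with Psmb10 lower (49.8%). NK were lower for 3 genes than T4 (20.6%), higher for 3 than GN (65.4%) and higher for 6 than peritoneal MF (45.5%). T4 were higher for 7 genes than GN (75.1%) and for 7 than peritoneal MF (57.2%). GN were higher for 5 genes than peritoneal MF and lower for 2, Psmb10 and Tapbp (77.3%). Spleen MF and peritoneal MF differed for 0 of 9 (0.502% of all genes called). An unadjusted p under 0.05 was reached there by 3 of the 9, Tap1, Psmb9 and Nlrc5, and by 1016 of all 13153 genes.

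JAK inhibitors did not move any of the 9 genes past the threshold in any of the 13 contrasts of all inhibitors against plain vehicle. limma called 0 of 117 tests on the 9 genes, and 10 of the 117 (8.55%) had an unadjusted p under 0.05, against 4.92% of the tests on all genes. Few other genes were called, and the count of 0 is to be read against that. The share of all genes called was 0.00908% in spleen MF prolonged and 0.0182% in MF 4h, 0% in both DC contrasts, 0% in NK prolonged and 0.119% in NK 4h. It was 0% in T4 prolonged and 0.00892% in T4 4h, 0.0273% in GN prolonged and 0.0455% in GN 4h. In peritoneal MF it was 0.092% early, 0% late and 0% after 14 treatments. Contrasts of a cell type share vehicle arrays, so they are given side by side and not counted as independent.

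**Figure D2:**
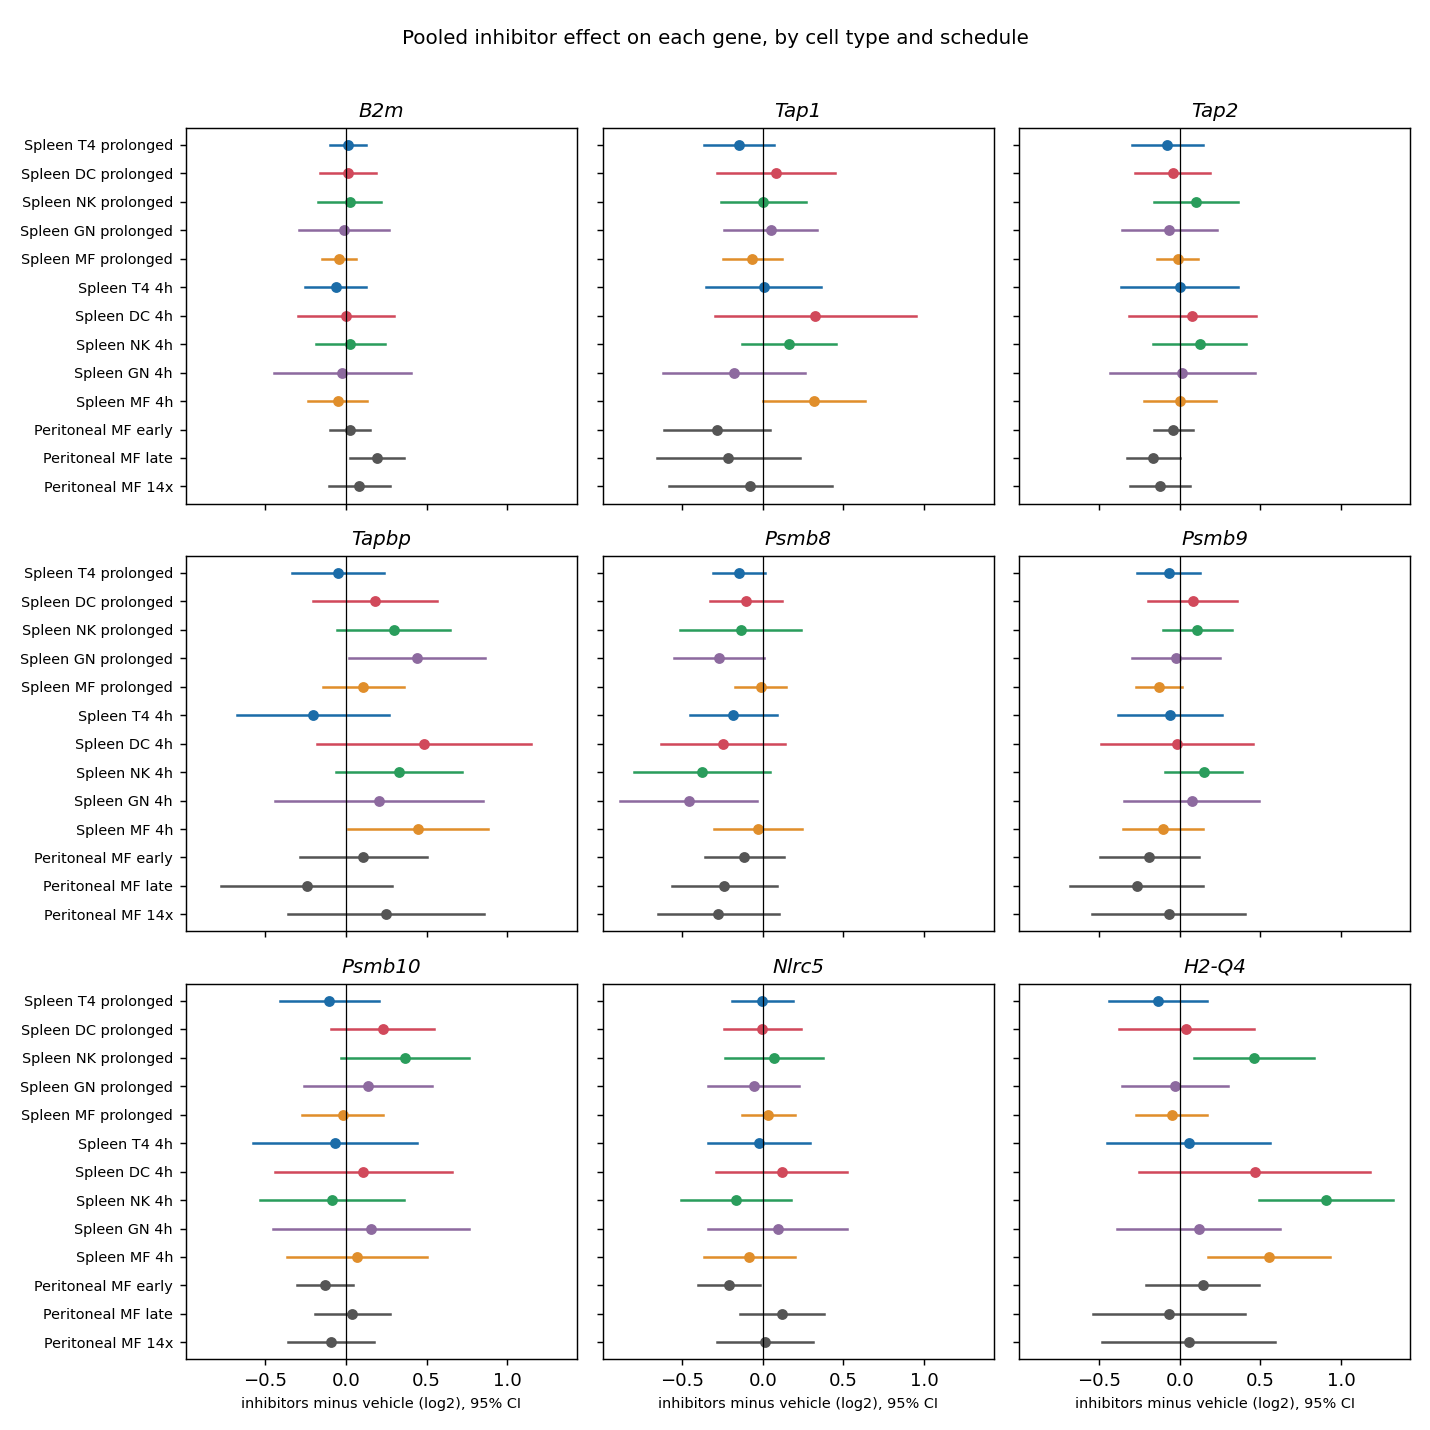
Inhibitors minus plain vehicle (log2 difference, with its 95% confidence interval as the bar) for the 9 genes in each of the 13 contrasts. H2-Q4 in NK 4h lies farthest from 0, at 0.91, and the Psmb8 points lie between −0.46 and −0.01.

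H2-Q4 in NK cells was the gene that came nearest to a call. The 5 inhibitor arrays at 4 h had 10.57, 10.48, 10.46, 10.73 and 10.61, against 9.35, 9.79 and 10.29 on the 3 vehicle arrays. All 5 inhibitor arrays were above all 3 vehicle arrays, and the share of all genes separated in this way was not counted. The fitted difference was 0.91 (SE 0.20, 95% confidence interval 0.49 to 1.32), with an adjusted p of 0.0735 in limma, and 0.119% of all genes were called there. The result rests on few vehicle arrays. Without a J2 vehicle array, the one at 9.35, the difference was 0.70 with an adjusted p of 1.00. Without the 3 NK arrays that stood apart, all in prolonged groups, it was 0.92 with an adjusted p of 0.0177, and with array weights it was 0.83 with an adjusted p of 0.00484. Leaving out 1 of 3 prolonged arrays (SB00526221 replicate 1 or 6, or SB00526228 replicate 3) also brought it past the threshold, at 0.94, 0.92 and 0.91 with adjusted p-values of 0.0461, 0.0182 and 0.0286. Within J2, which holds all 4 h arrays, it was 1.00 against the 2 vehicle arrays of that experiment.

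In the prolonged NK group H2-Q4 ran from 9.62 to 11.17 (median 10.39), with 2 of the 3 vehicle arrays inside that range and a J2 array at 9.35 below it. The fitted difference was 0.46 (SE 0.18, adjusted p 0.997 in limma). It was 0.77 within J2 (7 inhibitor and 2 vehicle arrays) and 0.06 within J6 (2 inhibitor arrays and 1 vehicle array). Only 9 of the 19 prolonged inhibitor arrays had a vehicle array in their own experiment. The 2 from J3 and the 8 from J8 had none, so they carry no direct comparison with vehicle. Markers of other cells in the NK sort moved in part with the 4 h group. The mean of the 6 listed red pulp macrophage markers, of 6 with a probe set, was 6.48 to 7.30 on the 4 h inhibitor arrays, against 6.32 to 6.47 on the vehicle arrays. The dendritic cell markers (6 of 6) gave 7.68 to 8.56 at 4 h and 7.46 to 8.49 in vehicle, and the T cell markers (4 of 5) gave 8.43 to 9.22 and 8.657 to 9.38. None of these markers was at 0, and their part in the H2-Q4 difference was not tested.

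In spleen MF at 4 h, H2-Q4, Tapbp and Tap1 were above vehicle at an unadjusted p under 0.05, without passing the threshold. At that level 455 of all 11008 genes were above vehicle and 401 below. H2-Q4 was 8.502, 8.684, 8.638 and 8.300 on the 4 inhibitor arrays at 4 h, and 7.514 to 8.653 (median 8.45) on the 8 vehicle arrays. The groups overlapped, and the lowest vehicle array was the one from J2. Its values were also the lowest of the 8 for Tap1 (7.82) and Tapbp (9.70). The fitted differences were 0.56 for H2-Q4 (SE 0.18, adjusted p 0.584), 0.45 for Tapbp (SE 0.21, adjusted p 0.626) and 0.32 for Tap1 (SE 0.15, adjusted p 0.626). Without that array they were 0.34, 0.20 and 0.19.

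Tap1 at 4 h in spleen MF lay in a tight band, 8.37, 8.44, 8.39 and 8.42, inside the vehicle range of 7.82 to 8.77. Tapbp had 10.04, 10.79, 10.96 and 10.98 at 4 h, against 9.70 to 10.90 in vehicle (median 10.71). In the prolonged group the experiments differed in sign: for H2-Q4 the difference was 0.65 in J2 and 0.29 in J3, and −0.41 in J6 and −0.40 in J8. For Tap1 these differences were 0.35 and 0.21 in J2 and J3, and −0.41 and −0.24 in J6 and J8. The fitted prolonged differences were −0.05 for H2-Q4 (SE 0.11) and −0.06 for Tap1 (SE 0.09).

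**Figure D3:**
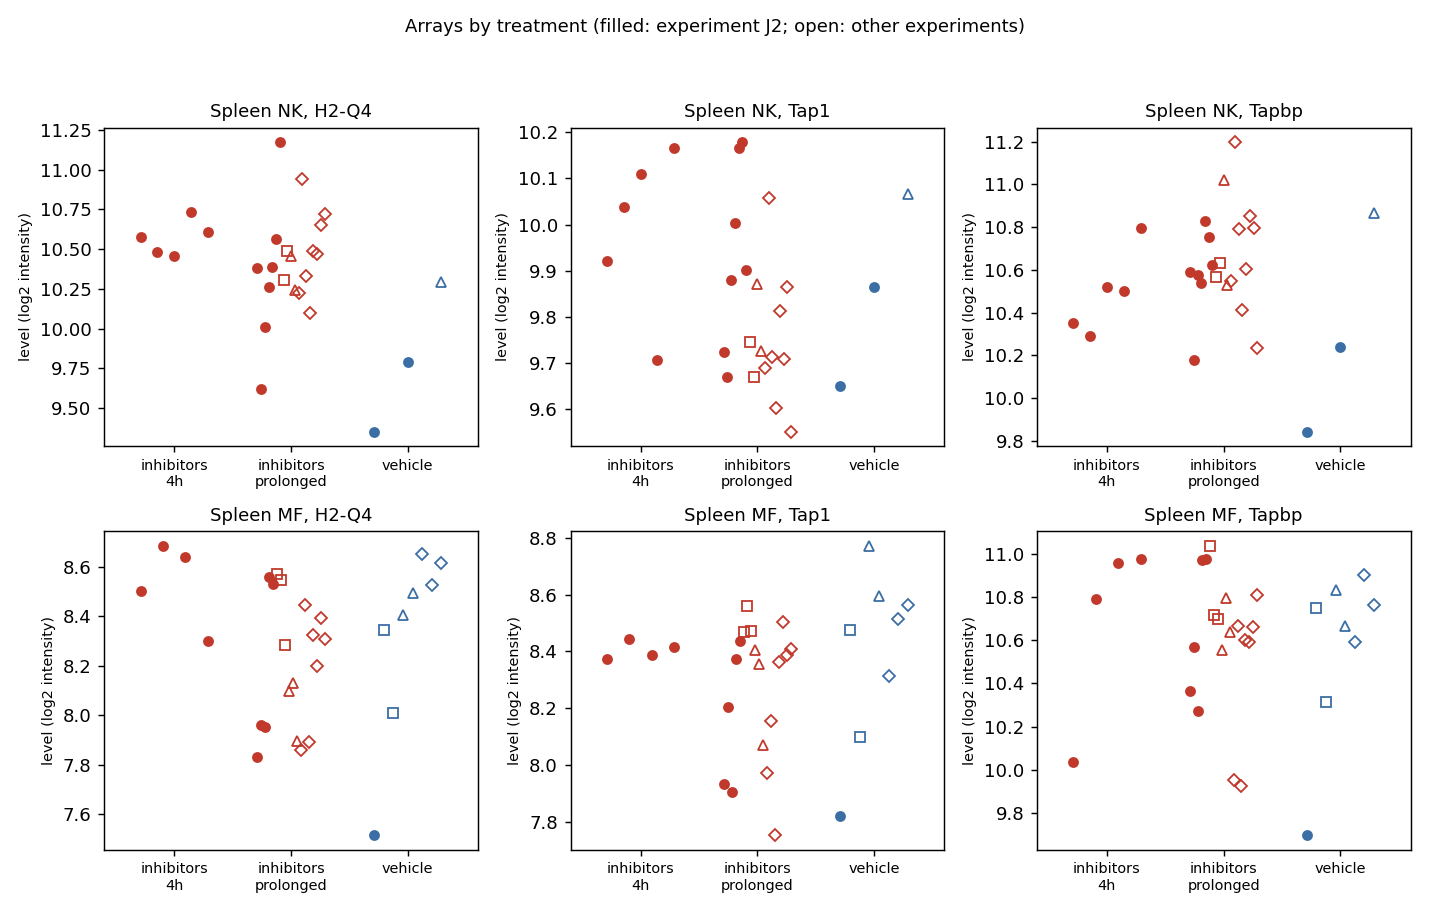
Log2 intensity of H2-Q4, Tap1 and Tapbp on each array of spleen NK and spleen MF, in the order inhibitors 4 h, inhibitors prolonged and vehicle. Filled points are J2 and open points the other experiments. The 5 NK arrays at 4 h lie above the 3 vehicle arrays for H2-Q4, and the filled vehicle point of MF is the lowest vehicle point in each panel.

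In the other spleen populations the genes of peptide loading and of the class I molecule varied without a call. In GN, Tapbp was 10.26 to 10.93 in the prolonged group (median 10.65), against 9.88, 10.14, 10.18, 10.41 and 10.87 in vehicle, with overlap and a difference of 0.44 (SE 0.20, adjusted p 0.580 in limma). In DC at 4 h, on 2 arrays, the differences were 0.33 for Tap1 (SE 0.30), 0.48 for Tapbp (SE 0.32) and 0.46 for H2-Q4 (SE 0.34), with intervals from −0.30 to 0.95, −0.18 to 1.15 and −0.25 to 1.18. The mean of the 6 red pulp macrophage markers was 8.51 and 8.88 on these 2 arrays, against 7.54 to 8.11 on the DC vehicle arrays, and its part in these differences was not tested. In T4 prolonged, Tap1 was 9.76 to 10.67 on 19 inhibitor arrays (median 10.42), against 10.05 to 10.73 on 7 vehicle arrays (median 10.60), and differed by −0.15 (SE 0.10, interval −0.36 to 0.07). Tap2 lay between −0.16 and 0.12 in all 13 contrasts, and B2m between −0.06 and 0.19.

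Among the proteolytic subunits, Psmb8 (LMP7) was not called in any contrast. In some contrasts its groups did not overlap. The share of all genes that did so was not counted, so this is not shown to be particular to Psmb8. Its prolonged differences were −0.01 (MF), −0.11 (DC), −0.14 (NK), −0.15 (T4) and −0.27 (GN), with standard errors of 0.08, 0.11, 0.18, 0.08 and 0.13. Its 4 h differences, against the same vehicle arrays, were −0.03 (MF), −0.25 (DC), −0.38 (NK), −0.18 (T4) and −0.46 (GN), with standard errors of 0.13, 0.18, 0.20, 0.13 and 0.20. Within J2, whose vehicle arrays number 1 or 2 per population, the 4 h difference was −0.46 in GN, −0.30 in NK, −0.28 in DC, 0.05 in T4 and 0.12 in MF.

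In granulocytes at 4 h, Psmb8 was 7.85, 8.45, 8.37 and 8.23 on the inhibitor arrays and 8.685, 9.007, 8.852, 9.029 and 8.717 on the vehicle arrays. The groups did not overlap, and the share of all genes separated in this way was not counted. All 4 inhibitor arrays came from J2, as did the vehicle array at 8.685, and GN Psmb8 was 0.47 lower in J2 over all arrays. The adjusted p in limma was 0.793 (interval −0.88 to −0.03), with 0.0455% of all genes called. In NK at 4 h it was 8.91, 9.18, 8.98, 8.83 and 9.09, against 9.398, 9.198 and 9.514 in vehicle. The groups again did not overlap, without a count of this over all genes (adjusted p 0.512 in limma, interval −0.80 to 0.05).

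Psmb9 (LMP2) and Psmb10 (MECL-1) did not follow Psmb8. For Psmb9 the 13 differences ran from −0.27 to 0.15, and in spleen MF prolonged it was −0.13 (SE 0.07, interval −0.27 to 0.01). Psmb10 differences ran from −0.13 to 0.37, the highest in NK prolonged (SE 0.19, interval −0.03 to 0.77). Nlrc5, the class I transactivator, differed by −0.21 (SE 0.09) in early peritoneal MF and by −0.17 to 0.12 in the other contrasts.

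In the early peritoneal groups, inhibitor and vehicle arrays all followed 1 treatment. Vehicle of the late and 14x contrasts, 3 arrays taken at 18 to 19 h, was not matched in this way: the J23 array followed 1 treatment and both J25 arrays followed 14, while late inhibitor arrays followed 1 treatment and 14x arrays 14. Within J25 the number of treatments and the inhibitor therefore cannot be told apart in the late contrast. On the 12 early inhibitor arrays Tap1 ran from 8.16 to 8.95 (median 8.53), and on the 6 early vehicle arrays from 8.12 to 9.65 (median 8.85). The groups overlapped, and the fitted difference was −0.29 (SE 0.16, interval −0.61 to 0.04). In J23 the early inhibitor arrays were taken at 1.5 to 6 h and the 1 vehicle array at 6 h, and that vehicle array was among those that stood apart. By experiment the Tap1 difference was −0.55 in J12 (6 inhibitor and 3 vehicle arrays), 0.51 in J23 (4 inhibitor arrays and 1 vehicle array) and −0.28 in J25 (2 of each). The extremes of the vehicle group carry this spread: a J12 array had 9.65 for Tap1 and 10.01 for Psmb9, and the J23 array had 8.12 and 8.85.

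Early Nlrc5 was 9.39 to 10.13 on the inhibitor arrays (median 9.71), against 9.58 to 10.21 on the vehicle arrays (median 10.06). Its difference of −0.21 had an interval of −0.40 to −0.01 and an adjusted p of 1.00 in limma. By experiment it was −0.17 in J12, −0.06 in J25 and −0.52 in J23, where it rests on the same vehicle array that stood apart. In the late group the difference for Nlrc5 was 0.12 (SE 0.13). Late B2m was 13.06 to 13.42 on 8 inhibitor arrays (median 13.22), against 12.92, 13.11 and 13.11 on the vehicle arrays, a difference of 0.19 (SE 0.08, adjusted p 0.920). Late Tap2 was 8.24 to 8.53 (median 8.39), against 8.537, 8.685 and 8.517, a difference of −0.16 (SE 0.08, adjusted p 0.920).

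Psmb8 in the late group was 7.78 to 8.48 (median 8.41), below all 3 vehicle arrays at 8.49, 8.56 and 8.50. After 14 treatments it was 8.46, 8.16, 7.87 and 8.23, also below these 3 arrays. The share of all genes separated in this way was not counted. By experiment the late difference was −0.06 in J23 and −0.35 in J25. The fitted differences were −0.24 (SE 0.16, interval −0.57 to 0.09) and −0.28 (SE 0.18, interval −0.65 to 0.10), with 0% of all genes called in either contrast. Against vehicle of the same number of treatments they were −0.08 (SE 0.26) and −0.35 (SE 0.20). For Tapbp such matching gave −0.67 (SE 0.41) late and 0.44 (SE 0.33) after 14 treatments, beside −0.24 and 0.25 with all 3 vehicle arrays. The 3 vehicle arrays are the same in both contrasts and lie close together (SD 0.04), while the 6 early vehicle arrays ran from 8.28 to 8.91.

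**Figure D4:**
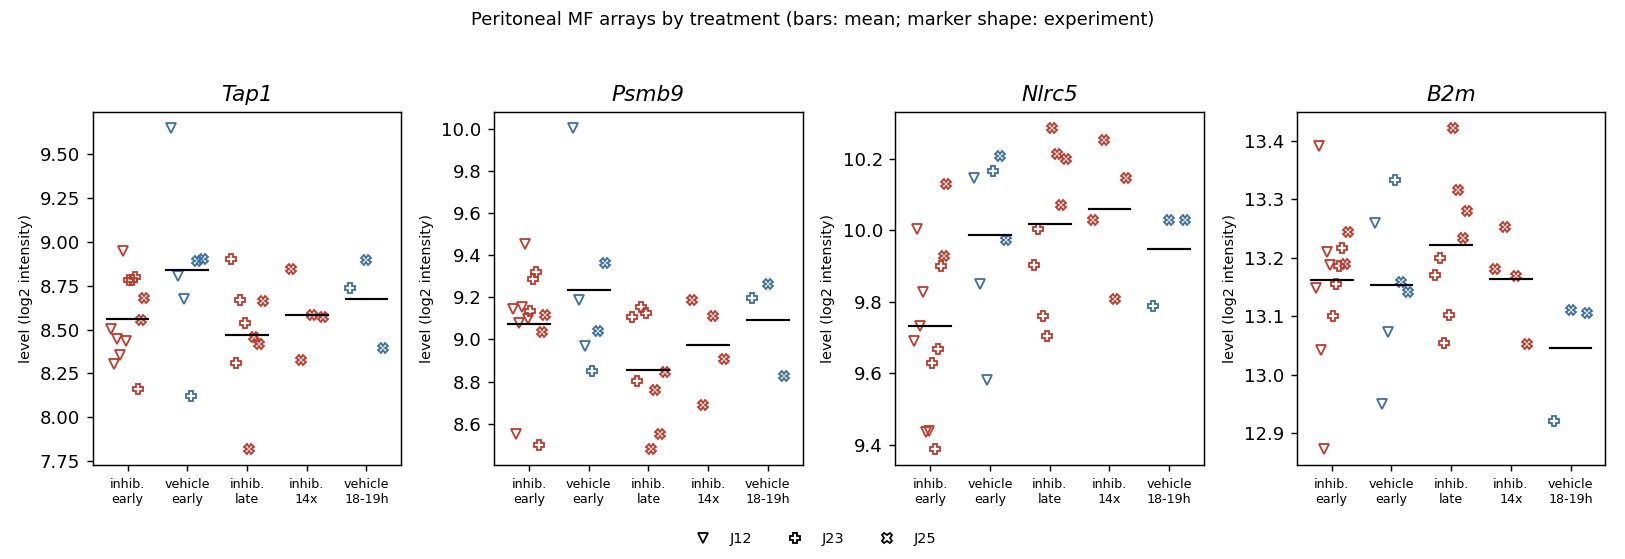
Log2 intensity of Tap1, Psmb9, Nlrc5 and B2m on each peritoneal MF array, in the order early inhibitors, early vehicle, late inhibitors, 14x inhibitors and vehicle at 18 to 19 h. The marker shape gives the experiment. The vehicle arrays span as wide a range as the inhibitor arrays for Tap1, with 9.65 as the highest and 8.12 as the lowest early vehicle value.

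Single compounds were set against vehicle in 44 contrasts, in which 0 of 396 tests on the 9 genes were called by limma and 24 (6.06%) had an unadjusted p under 0.05. Of the tests on all genes 0.0589% were called and 4.65% had an unadjusted p under 0.05. H2-Q4 gave the widest range. In NK it differed by 1.04 with prolonged SB00526228 (SE 0.22, adjusted p 0.162), by 1.00 with SB00526226 at 4 h (SE 0.25, adjusted p 0.119), by 0.86 with SB00526221 at 4 h (SE 0.25) and by 0.79 with SB00526222 at 4 h (SE 0.31). In GN a single array of prolonged SB00526221 had 7.18, against 7.80, 8.26 and 8.47 on the vehicle arrays of its experiment, a difference of −1.0 (SE 0.24, adjusted p 0.355). That array has no replicate and was assumed to vary like the others.

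In spleen MF under prolonged SB00526221 the difference was −0.30 for Psmb9 (SE 0.09, adjusted p 0.198) and −0.28 for Tap1 (SE 0.12, adjusted p 0.640). For Psmb8 the single-compound differences ran from −0.84 with SB00526221 at 4 h in GN (SE 0.25, 1 array) to 0.24 with SB00526222 at 18 h in T4 (SE 0.20, 1 array). The 18 h arrays of T4, after 1 treatment, were set against prolonged vehicle, which followed 14 or 15 treatments. Number of treatments and inhibitor therefore cannot be told apart there. The T4 inhibitor array at 3 h was set against 1 vehicle array. Tapbp reached 0.73 with SB00526226 at 4 h in spleen MF (SE 0.32, 1 array).

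Compounds were compared with each other at matched schedules in 50 pairs, and 0 of 450 tests on the 9 genes passed the threshold, with p-values adjusted over the genes of each pair. An unadjusted p under 0.05 was reached by 32 (7.11%), against 4.79% for all genes, of which 0.165% were called. In spleen MF at 4 h, SB00526226 exceeded SB00526221 by 0.94 for Tapbp (SE 0.40, adjusted p 0.192) and SB00526222 exceeded SB00526221 by 0.84 (SE 0.35, adjusted p 0.323). In NK prolonged, SB00526228 exceeded SB00526222 by 0.81 for H2-Q4 (SE 0.24, interval 0.32 to 1.30) and SB00526221 by 0.71 (SE 0.21, interval 0.28 to 1.14). In T4 at 4 h, SB00526226 exceeded SB00526221 by 0.81 for Psmb9 (SE 0.26, interval 0.28 to 1.33). Intervals of such pairs were wide, with a median distance from the estimate to either end of 0.64 for H2-Q4, 0.68 for Tapbp and 0.28 for B2m, so differences of that size between compounds were not detectable here. Doses are not given, so the pairs compare the compounds as they were used.

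Between schedules, the 4 h inhibitor groups were set against the prolonged ones directly, and 0 of 54 tests on the 9 genes were called by limma, with 5 (9.26%) at an unadjusted p under 0.05 and 6.47% of all genes. H2-Q4 was 0.64 higher at 4 h in spleen MF (SE 0.16, adjusted p 0.0792, 0.136% of all genes called), or 0.62 with an adjusted p of 0.0432 without the 1 array that stood apart, and 0.55 higher in NK (SE 0.17, adjusted p 0.112, 1.42% called). Tap1 was 0.40 higher at 4 h in spleen MF (SE 0.14, adjusted p 0.230), and Psmb10 was 0.46 lower in NK (SE 0.18, adjusted p 0.273). In DC, T4 and GN no member reached that unadjusted level, with 0%, 0.0357% and 0% of all genes called. In peritoneal MF the early effect minus the late effect was −0.35 for Nlrc5 (SE 0.16, adjusted p 0.880), with 0% called.

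Whether the inhibitor effect differed between the spleen cell types was tested with an F test, in which 0 of 9 genes were called for the prolonged effect (0.113% of all genes) and 0 of 9 for the 4 h effect (0.0451%). H2-Q4 had an adjusted p of 1.00 in both, so its higher values in NK are not shown to be particular to that cell. The vehicle at pH 3 differed from the plain vehicle in 0 of 27 tests on the 9 genes by limma, with 1 at an unadjusted p under 0.05, Psmb9 in T4, 0.34 higher at pH 3 (SE 0.16). In MF, T4 and GN 0% of all genes were called in these contrasts.

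Several of these genes stood at different levels in J2 and in the other experiments, over inhibitor and vehicle arrays together. Psmb10 averaged 9.29 on the 12 spleen MF arrays of J2, against 10.45 on the 21 of the other experiments. The J2 and other means were 9.24 and 10.31 for DC, 9.83 and 10.98 for NK, 9.38 and 10.60 for T4, and 7.63 and 8.727 for GN, so that the J2 mean minus the other mean ran from −1.22 in T4 to −1.07 in DC. In DC and GN the 2 sets did not overlap. Psmb9 was lower in J2 by 0.46, 0.39, 0.46, 0.57 and 0.38 in MF, DC, NK, T4 and GN, and Psmb8 by 0.24, 0.06, 0.47, 0.39 and 0.47. Nlrc5 ran the other way, with J2 higher by 0.44, 0.42, 0.58, 0.22 and 0.13. Between inhibitors and vehicle, with experiment as a term of the fit, the 13 Psmb10 differences ran from −0.13 to 0.37. The J2 differences are descriptions without a test. The share of all genes that shifted or did not overlap between J2 and the rest was not counted, so the shifts are not shown to be particular to these genes.

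**Figure D5:**
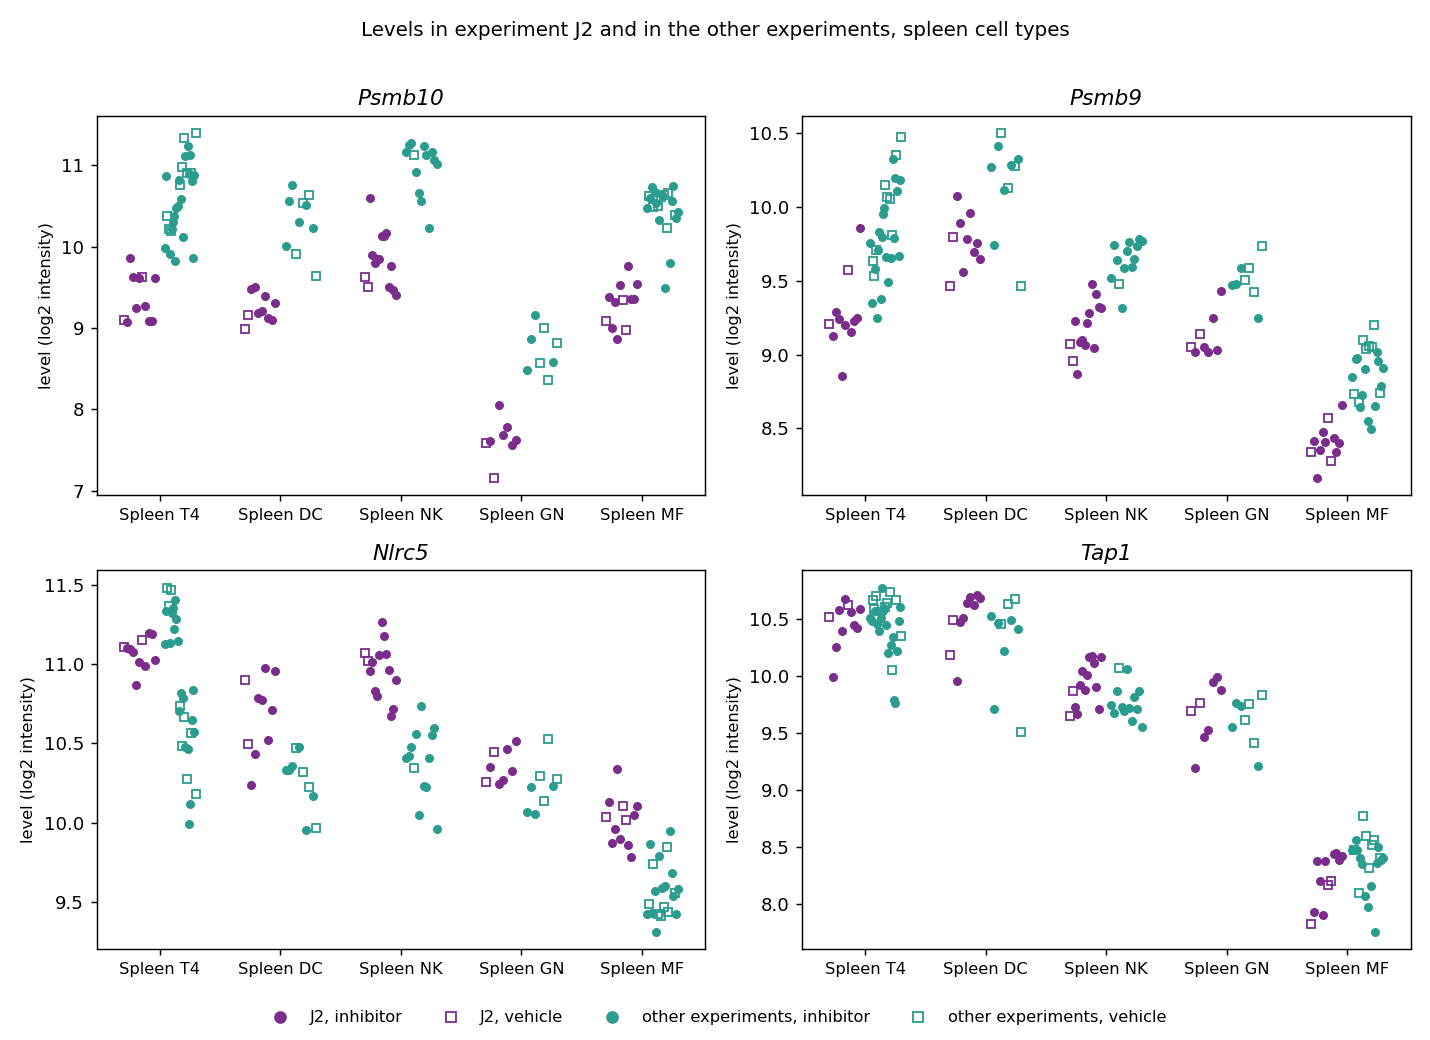
Log2 intensity of Psmb10, Psmb9, Nlrc5 and Tap1 on J2 arrays and on the arrays of the other experiments in the 5 spleen populations. Circles are inhibitor arrays and open squares vehicle arrays. Psmb10 of J2 lies about 1 unit lower in each population, and Nlrc5 of J2 lies 0.13 to 0.58 higher, over circles and squares together.

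After population means were removed, pairs of the genes correlated to differing degrees over the 168 arrays, which share experiments, animals and normalization. Psmb9 and Psmb10 had a Pearson correlation of 0.71, Psmb8 and Psmb9 of 0.65, and Psmb8 and Psmb10 of 0.59. Nlrc5 correlated negatively with these subunits, at −0.62 with Psmb8, −0.55 with Psmb9 and −0.63 with Psmb10. Tapbp and H2-Q4 correlated at 0.70, and Tap1 at 0.57 with Tap2, 0.64 with Tapbp and 0.64 with H2-Q4. Psmb9 also correlated with Tapbp (0.59), H2-Q4 (0.49) and Tap2 (0.41). Tap1 and Psmb9, whose promoter windows overlap, correlated at 0.32. B2m stayed between −0.24 and 0.29 with all the others.

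Among 8763 genes, those most like Tap1 were Adar, an interferon-inducible RNA editing enzyme (0.77), Stat2, a transducer of type I interferon signals (0.76), and Rnf31 (0.75). Those most like Psmb10 were Uqcr11 (0.93), Ndufa13 (0.91) and Sf3b5 (0.90), of which the first 2 encode parts of the mitochondrial respiratory chain. Psmb8 was most like Sdhb, a subunit of succinate dehydrogenase (0.86), Get3 (0.84) and the proteasome activator subunit Psme1 (0.83). H2-Q4 was most like its neighbour H2-Q5 (0.76), then Tapbp (0.70) and Otud5 (0.69). Tapbp was most like Lypla2 (0.88), Nlrc5 like Mir680-3 (0.83), Psmb9 like Atox1 (0.84), B2m like Zfp706 (0.66) and Tap2 like Traf2 (0.62).

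Of 40 further genes listed for the class I pathway and its interferon control, 28 had a probe set of their own and 26 or 27 were tested per population. Of these, 1 passed the threshold in the 13 contrasts against vehicle: Irf9, a DNA-binding factor of interferon signalling, fell by 0.55 in early peritoneal MF (SE 0.11, adjusted p 0.0458 in limma). The class I gene H2-T24 had a difference of −0.70 there (SE 0.15, adjusted p 0.0648). The median of the list in that contrast was 0.00, beside 0.02 for all genes tested and −0.11 for the 9 genes. In NK, the chaperone Calr (calreticulin) was lower at 4 h than in the prolonged group by 0.56 (SE 0.12, adjusted p 0.0183).

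Elsewhere the leading genes of the list did not pass. In GN at 4 h these were Canx at −0.55, Pdia3 at −0.56 and the proteasome activator Psme2 at −0.65, and the list median was −0.16, against 0.03 for all genes. In DC at 4 h they were Psme2 at −0.41, Ifnar1 at 0.48 and Stat2 at 0.58, with a list median of 0.07 against 0.04. In spleen MF prolonged they were H2-T24 at −0.20, H2-M3 at −0.10 and Ifnar1 at 0.14, in NK prolonged Calr at 0.32, Mr1 at −0.33 and Ifngr1 at −0.20, and in T4 prolonged H2-T10 at −0.28, Erap1 at 0.22 and H2-T24 at −0.19.

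All 14 listed genes of the constitutive proteasome were tested, and limma called 0 of them in all 13 contrasts. An unadjusted p under 0.05 was reached in 6 of these tests, and in 4.92% of the tests on all genes. Their median difference in the peritoneal late contrast was −0.16, beside −0.06 for all genes and −0.16 for the 9 class I genes. In NK at 4 h it was −0.17, beside −0.01 for all genes and 0.12 for the 9 genes.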

How the data were processed

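RNA of sorted cells was hybridised to Affymetrix Mouse Gene 1.0 ST arrays, and the authors deposited 1 table of linear intensity values for 168 arrays, made with RMA in Affymetrix Power Tools per the submitters' processing notes, in versions the sources used here do not give. This table had no column without a sample (0 columns), no identical pair of arrays, and array medians of 119.5 to 142.3. Its values were turned into log2 with no pseudocount, the lowest being 5.11 on the linear scale. Of 24922 probe sets, 21425 had 1 gene symbol, 1399 had several and 2098 had none, and genes were named only from the first kind.

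Each population was fitted separately with limma 3.58.1 in R 4.3.3, on genes above the array's median on at least 3 arrays of the population, with 1 mean for each compound and schedule and experiment as a term. Pooled contrasts averaged the compounds of a schedule. Baseline differences were fitted over the 39 plain vehicle arrays with the animal as a random block, and differences of the effect between cell types over the spleen arrays. P-values were adjusted with Benjamini-Hochberg over all genes of a contrast, with 0.05 as the threshold, and the scripts were tested on simulated data. Groups of 1 array were assumed to vary like the others. The experiment was the first part of the sample title, and the number within it was taken as 1 animal, 80 in all. Nothing else in the labels says how replicates were separated, so the p-values cover only variation among these samples, which may be technical, and the number of arrays limits the precision. The labels give no dose.

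The members and lists were chosen with earlier results of these data known. The text describes every one of the 9 genes, gives a difference in a pooled contrast its full values where the unadjusted p was under 0.05, and names from the pathway list the genes called and leading genes by moderated statistic. Alternatives were quantile normalization, no filter, no experiment term, experiment as a random block, array weights, the mean over probe sets, an offset of 16, leaving out arrays standing apart, pooling both vehicles, and leaving out each array in turn. Arrays stood apart where their median correlation with their population was more than 3 scaled median absolute deviations below its median.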

Additional observations from a re-analysis of the deposited data

Results flagged for a closer look

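In 14 of 171 tests, each of 1 gene in 1 group of 4 to 10 arrays, the highest or lowest array lay farther from its nearest neighbour than Dixon's 95% limit allows. Chance gives about 1 in 20, and 19 groups were examined.

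Immunoproteasome subunits account for 5 of these. Psmb10 was lowest on replicate 1 in 3 groups: 9.85 in NK under prolonged SB00526222 (next 11.12), 9.61 in T4 under prolonged SB00526222 (next 10.80) and 9.08 in spleen MF under vehicle (next 10.23). These 3 arrays were the only J2 arrays of their groups, and J2 levels of Psmb10 are given above. Psmb9 was lowest on replicate 5 of early SB00513404 in peritoneal MF, at 8.50 (next 9.03), and Psmb8 was lowest on replicate 3 of late SB00513404 there, at 7.78 (next 8.41).

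Among the other genes, Tap1 was low on 3 arrays. It had 9.71 in DC under prolonged SB00526222, replicate 3 (next 10.46), and 7.91 in spleen MF under prolonged SB00526226, replicate 1 (next 8.36). In T4 under vehicle, replicate 7, it had 10.05 (next 10.52). Tap2 was low at 8.28 on replicate 5 of early SB00513404 in peritoneal MF (next 8.45) and at 8.08 on replicate 1 of prolonged SB00526221 in spleen MF (next 8.40). Tapbp was low at 9.97 on replicate 4 of the early peritoneal vehicle (next 10.78) and at 9.93 on replicate 5 of prolonged SB00526222 in spleen MF (next 10.57). B2m was low at 13.24 on replicate 1 of prolonged SB00526222 in NK (next 13.42). Nlrc5 was high at 10.79 on replicate 1 of prolonged SB00526222 in DC (next 10.36). The arrays with low Tapbp, with low Psmb8 in late peritoneal MF, and with low Tap1 in DC and T4 were among the 16 that stood apart.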

How the results depend on the processing

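Counts of the 9 genes called against vehicle, between compounds or between schedules were 0 as reported and stayed at 0 except as follows. The 10 differences with an unadjusted p under 0.05 kept their sign in all alternatives run, but smaller ones did not. Of the 117 differences, the sign turned for 19 with no experiment term, 16 with experiment as a random block, 14 without the arrays that stood apart, 12 with array weights, 9 after quantile normalization and 6 with the mean over probe sets. It turned for 7 of 54 with both vehicles pooled, for 1 of 27 with vehicle matched for the number of treatments, and for 47 of 117 in at least 1 fit that left out an array, and none turned without the filter or with the offset. With no experiment term, Psmb10 was −1.04 in spleen MF at 4 h and −0.72 in GN at 4 h, beside 0.07 and 0.16 as reported, Nlrc5 was 0.35 in spleen MF at 4 h, beside −0.08, and Psmb8 was 0.12 in prolonged NK, beside −0.14. Late peritoneal Nlrc5 was −0.03 with the mean over probe sets, beside 0.12. Array weights gave 3 calls among peritoneal MF compound pairs, 2 in the peritoneal late contrast (B2m and Tapbp), 4 among peritoneal single compounds, 2 between schedules in spleen MF, 3 among its compound pairs, 2 among its single compounds, 1 in NK at 4 h, 2 between schedules in NK and 4 among NK single compounds. The array weights of 1 population stopped before converging. No experiment term gave 1 call in GN at 4 h (Psmb8, −0.63, adjusted p 0.0260), 1 among GN single compounds, 2 between schedules in NK, 1 between schedules in T4 and 1 among T4 compound pairs. Experiment as a random block gave 1 between schedules in NK, quantile normalization 1 between schedules in spleen MF, and leaving out the arrays that stood apart 1 between schedules in spleen MF, 1 in NK at 4 h and 2 among NK single compounds. Leaving out each array in turn gave 0 to 1 calls between schedules in spleen MF (1 without SB00526222 replicate 5 or SB00526226 replicate 2, both prolonged), 0 to 1 in NK at 4 h, 0 to 2 among NK single compounds and 0 to 1 among GN single compounds (H2-Q4 with SB00526221, without vehicle replicate 4). For each of these, the cause was not tested.

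The counts over all genes moved more: in spleen MF at 4 h 2 genes were called, against 302 with no experiment term and 111 with array weights, and in prolonged spleen MF 1 was called, against 89 with array weights and 83 with both vehicles pooled. Leaving out 1 array gave 1 to 69 genes in NK at 4 h (13 as reported, 1 without vehicle replicate 1, 69 without prolonged SB00526221 replicate 6), 1 to 41 in prolonged spleen MF (41 without vehicle replicate 7) and 2 to 25 in early peritoneal MF (10 as reported, 25 without vehicle replicate 4, 2 without vehicle replicate 1, 2 or 5). It gave 0 to 7 in GN at 4 h, 0 to 8 in prolonged GN, 0 to 4 in T4 at 4 h and 0 to 3 in spleen MF at 4 h. The baseline calls stayed at 8 to 9 of 9 genes and 65 to 79 of 135 pairs of populations, and without J2, an alternative chosen after seeing the data, Nlrc5 was called in 7 pairs instead of 10. With experiment as a fixed effect B2m was called in 2 pairs instead of 6. No paired analysis was possible because replicate numbers follow accession order and each animal received 1 treatment. Leaving out GN vehicle replicate 1 or 2 removes an experiment's only vehicle array, so the pooled GN contrasts and the test between cell types were not run there. With 1 to 5 arrays per 4 h group, the intervals given above bound what could be detected.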
